A study of Mus musculus with 2 samples.

Results

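The guanylate-binding proteins (GBPs) and their relatives, the immunity-related GTPases, were followed in single cells of the mouse retinal pigment epithelium (RPE), the pigmented cell layer behind the photoreceptors. The 10 genes examined, out of 32285 in the files, were Gbp2, Gbp3, Gbp4, Gbp5, Gbp6, Gbp7, Gbp8, Gbp9, Igtp and Irgm1, chosen by name and all found by symbol. The cells came from C57BL/6J mice 3 months of age, 7 days after 1 µl was injected under the retina. The Control mice received PBS, and the Dox mice received doxorubicin, which damages DNA, at 100 ng/µl. Each group was a pool of 10 eyes from 5 mice sequenced as 1 library, so that no test between the groups was possible, and library, injection and drug cannot be told apart. The drug reaches only part of the RPE after such an injection, and the tissue also held choroid and sclera, so other cell types were sequenced beside the RPE. Levels are unique molecular identifiers (UMIs, tags of single RNA molecules) summed over the cells of a class and given per 1000000 UMIs (CPM), with exact Poisson 95% intervals in parentheses. Ratios carry exact conditional binomial intervals, and all intervals cover counting error only.

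RPE cells were those with at least 10 UMIs of Rpe65, the retinoid isomerase of the visual cycle. There were 1526 such cells of 20180 in Control and 1630 of 15426 in Dox, with a median of 16013.5 and 18115.5 UMIs per cell. All 11 RPE markers were detected in both libraries, with a summed level of 102790 CPM in Control against 103286 CPM in Dox, against 3470 and 5362 CPM in fibroblast-like cells. The RPE cells were also divided at 1000 CPM of Serpina3n, a secreted protease inhibitor. In Control 1511 cells lay below this value and 15 at or above it, in Dox 1422 and 208. Of the RPE cells, 6 in Control and 14 in Dox lay within 10% of the limit. All other cells were grouped by clustering and named from marker genes where these allowed it. In the same clustering 1307 of the 1526 RPE cells in Control and 1385 of the 1630 in Dox fell in the RPE-like cluster, the others outside it. The 2 libraries shared 427 cell barcodes among the kept cells.

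GBPs are large GTPases that assemble on the membranes of intracellular bacteria, parasites and their vacuoles, and the immunity-related GTPases Irgm1 and Igtp (Irgm3) regulate the same defence at host membranes. Their genes are known as targets of interferon. Type II interferon (interferon gamma) acts through GAS elements and through the factor IRF1, and is the classical inducer of GBPs and of the MHC class II genes. Type I interferons (alpha and beta) act through interferon-stimulated response elements (ISREs), which a complex with STAT2 and IRF9 binds, and are the stronger inducers of Ifit, Oas and Isg15 genes. Many genes, the GBPs among them, answer to both, so the question of which interferon the pattern resembles was put to separate gene lists.

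The genes lie on 3 chromosomes. By GENCODE vM21 on GRCm38, Gbp5, Gbp7, Gbp3 and Gbp2 lie in this order on the plus strand of chromosome 3, Gbp3 from 142560026 to 142573209 and Gbp2 from 142620602 to 142638008. Gbp8, Gbp9, Gbp4 and Gbp6 lie on the minus strand of chromosome 5, where Gbp8, Gbp9 and Gbp4 overlap. The annotated 5′ ends of these 3 lie close together, at 105139540, 105139539 and 105139586. The libraries were made with a 5′ kit, and how reads were divided among the 3 genes was not tested. Irgm1 (48861968 to 48871683, minus strand) and Igtp (58199556 to 58207591, plus strand) lie on chromosome 11. All 10 are annotated as protein coding. Near-identical copies limit the counting of Gbp6, since 64.5% of the 100-base windows of its transcripts also occur in Gm43302, Gbp10 or Gbp11. This share was 10.0% for Gbp7 and 5.16% for Igtp, and 0 for Gbp2 and Irgm1.

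The bases upstream of the RefSeq gene start are shown for the members whose levels the results turn on. RefSeq and GENCODE place some starts differently, so that by the GENCODE positions above the window of Irgm1 lies inside the gene, and those of Gbp2 and Gbp3 run past the start, the match in Gbp2 included. RefSeq promoters (GRCm38.p6) were at hand for 6 members, Gbp2, Gbp3, Gbp5, Gbp7, Igtp and Irgm1. In the 250 bases before the RefSeq start, an ISRE-like motif (GAAA, any 2 bases, GAAA, or TTTC, any 2 bases, TTTC on the other strand) and a GAS-like motif (TTCNNNGAA, which reads the same on both strands) were searched. All 6 genes held the ISRE-like letters, against 2.98% of 32851 promoters, and 3 of the 6 (Gbp5, Gbp7 and Igtp) also held the GAS-like letters, against 7.02%. Gbp3, Irgm1 and Gbp2 held no GAS-like match in this window. Gbp3 and Irgm1 each held 2 overlapping ISRE-like matches, ending 29 and 14 bases before the start. The upstream bases of Gbp3 (chr3:142559794-142560043, plus strand), Irgm1 (chr11:48871421-48871670, minus strand), Gbp7 (chr3:142530086-142530335, plus strand) and Gbp2 (chr3:142620413-142620662, plus strand) are given 5′ to 3′ along each gene, with the matches to either motif in capitals.
Gbp3: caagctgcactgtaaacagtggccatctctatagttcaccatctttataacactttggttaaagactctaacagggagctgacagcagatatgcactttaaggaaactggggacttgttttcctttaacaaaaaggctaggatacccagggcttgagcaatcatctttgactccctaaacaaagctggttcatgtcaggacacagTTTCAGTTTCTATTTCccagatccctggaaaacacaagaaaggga
Irgm1: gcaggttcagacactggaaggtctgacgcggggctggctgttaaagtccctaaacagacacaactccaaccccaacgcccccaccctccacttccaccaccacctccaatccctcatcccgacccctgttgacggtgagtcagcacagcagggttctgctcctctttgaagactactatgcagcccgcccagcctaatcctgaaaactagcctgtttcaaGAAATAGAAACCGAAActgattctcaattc
Gbp7: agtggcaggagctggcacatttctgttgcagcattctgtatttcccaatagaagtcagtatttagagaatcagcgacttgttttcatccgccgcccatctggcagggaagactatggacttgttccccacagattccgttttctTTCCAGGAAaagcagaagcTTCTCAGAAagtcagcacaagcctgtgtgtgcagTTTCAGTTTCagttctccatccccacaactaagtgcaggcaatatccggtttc
Gbp2: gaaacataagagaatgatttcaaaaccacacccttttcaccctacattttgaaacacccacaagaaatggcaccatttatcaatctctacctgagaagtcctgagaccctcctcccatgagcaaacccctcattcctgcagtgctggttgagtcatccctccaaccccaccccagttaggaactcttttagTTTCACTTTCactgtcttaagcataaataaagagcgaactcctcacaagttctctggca
In Gbp3 the capitals hold TTTCAGTTTC and TTTCTATTTC, which share 4 bases, and in Irgm1 GAAATAGAAA and GAAACCGAAA. In Gbp7 they hold the GAS-like TTCCAGGAA and TTCTCAGAA and the ISRE-like TTTCAGTTTC, and in Gbp2 only TTTCACTTTC. A second promoter listed for Gbp3 held neither motif. These matches describe letters and are no evidence of binding. In the gene lists used below, 10 of 19 type I-leaning genes with a promoter held the ISRE-like letters and 2 the GAS-like letters. Of 11 type II-leaning genes, 1 held the ISRE-like and 4 the GAS-like letters. Most type II-leaning genes thus also lacked GAS-like letters, and the letters were not used to tell the 2 kinds of interferon apart.

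In RPE cells Gbp3, Irgm1 and Gbp6 were higher in Dox than in Control, while Gbp2 was not. Gbp3 was at 19.5 CPM (17.8 to 21.3) in Control from 513 UMIs and at 58.4 CPM (55.7 to 61.1) in Dox from 1822 UMIs, a ratio of 3.00 (2.71 to 3.31). Irgm1, a regulator of autophagy and of the other GTPases of its family, was at 15.8 CPM (14.3 to 17.4) and 32.8 CPM (30.8 to 34.9), a ratio of 2.08 (1.85 to 2.34). Both intervals of the levels lay apart between the libraries.

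Gbp6 was at 5.93 CPM in Control against 9.87 CPM in Dox, a ratio of 1.67 (1.37 to 2.03), with the uncertainty of its shared sequence. Gbp7, a GBP of vacuole defence, stood at 21 and 30.8 CPM with a ratio of 1.47 (1.32 to 1.63). Igtp, which is known for guarding host membranes against GBP attack, stood at 7.14 and 10.5 CPM with a ratio of 1.47 (1.22 to 1.76). These 2 genes were higher in Dox beyond counting error but under the 1.5-fold limit used for a call.

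Gbp2 went the other way, with 5.4 CPM (4.55 to 6.36) in Control against 4.13 CPM (3.45 to 4.91) in Dox, a ratio of 0.766 (0.599 to 0.979). Gbp5, known for its link to inflammasome activation, was near the bottom at 1.29 and 1.06 CPM, and Gbp9 at 0.760 and 0.609 CPM, both with intervals of the ratio that include 1. Gbp4 was counted 11 times in Control and 8 times in Dox, and Gbp8 6 and 11 times, so that neither reached the 20 UMIs required for a call.

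The call was a ratio of at least 1.5-fold with at least 20 UMIs over both libraries. Of the 8 members with enough UMIs, 3 were called higher in Dox-RPE (Gbp3, Irgm1 and Gbp6) and none lower, where 2.93% of the 14215 genes tested were called higher and 7.44% lower. The median log2 ratio of these 8 was 0.55, against -0.02 for all genes tested. The summed level of the 10 members was 77.4 CPM (74.1 to 80.8) in Control against 149 CPM (144 to 153) in Dox, a ratio of 1.92 (1.82 to 2.03). Gbp3 made up 25.2% of the member UMIs in Control-RPE and 39.3% in Dox-RPE, while the share of Gbp2 went from 6.97% to 2.78%.

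The size of this ratio depended on how cells were weighted. Thinned to 2000 UMIs per cell, Gbp3 had a ratio of 2.39 and Irgm1 of 1.49, the latter just under the limit for a call and below Gbp6 at 1.76. The mean of the cells' own CPM gave 2.39 for Gbp3.

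**Figure D1:**
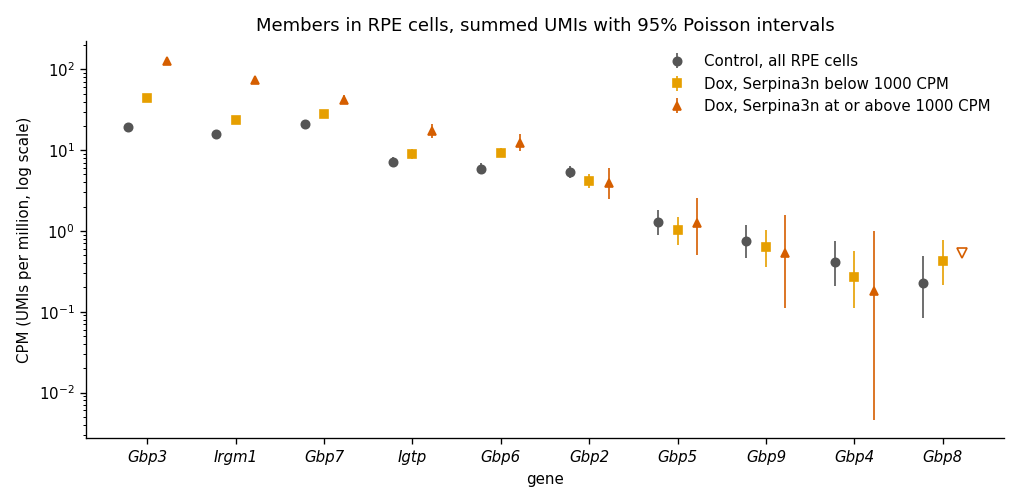
CPM of the 10 members (log axis) in all Control RPE cells (grey circles), Dox-RPE cells with Serpina3n below 1000 CPM (yellow squares) and at or above it (red triangles), with exact Poisson 95% intervals; an open triangle marks the level of 3 UMIs where none was counted. Gbp3 stepped from 19.5 to 43.7 and 126 CPM and Irgm1 from 15.8 to 23.8 and 74.4 CPM, while Gbp2 stayed between 3.95 and 5.4 CPM.

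Among the RPE cells of the Dox library, Gbp3 and Irgm1 were higher in the cells with high Serpina3n, while Gbp2 was not. Gbp3 was at 43.7 CPM (41.2 to 46.4) in the 1422 cells with low Serpina3n and at 126 CPM (117 to 136) in the 208 cells with high Serpina3n, a ratio of 2.88 (2.62 to 3.17). Irgm1 was at 23.8 CPM (21.9 to 25.8) and 74.4 CPM (67.4 to 81.9), a ratio of 3.13 (2.75 to 3.55), and Igtp at 8.97 and 17.4 CPM, a ratio of 1.94 (1.52 to 2.47). A single cell with high Serpina3n held 21 of the 97 Igtp UMIs, and with cells thinned to 10000 UMIs Igtp was found in 10.8% (6.73 to 16.2) of the cells with high and 8.45% (6.78 to 10.4) of those with low Serpina3n, so the call of Igtp leans on few cells. These 3 of the 7 members with enough UMIs were called higher and none lower, where 5.51% of all genes were called higher and 23.3% lower. Gbp7 (28.3 and 42.0 CPM, ratio 1.48) and Gbp6 (9.32 and 12.4 CPM, ratio 1.33) were nearer to each other, and Gbp2 stood at 4.17 CPM (3.42 to 5.04) and 3.95 CPM (2.48 to 5.98). The member sum was 121 CPM in the cells with low and 278 CPM in those with high Serpina3n, a ratio of 2.30 (2.17 to 2.45). The cells with high Serpina3n were deeper, with a median of 28244 UMIs against 16608, and held less Rpe65, 1954 CPM against 5499 CPM.

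Cell by cell, Gbp3 was widespread among the Dox cells with high Serpina3n. With each cell thinned to 10000 UMIs, 62.2% (54.8 to 69.2) of 185 such cells in Dox held a UMI of Gbp3, against 32.1% (29.1 to 35.1) of 970 Dox cells with low Serpina3n and 16.8% (14.6 to 19.2) of 1060 Control cells with low Serpina3n, by Clopper-Pearson intervals. For Irgm1 the shares were 46.5%, 18.8% and 13.5%. Before thinning, Gbp3 was found in 81.7%, 42.9% and 25.1% of the cells, and 23, 452 and 451 cells were too shallow to be thinned. Of 14 thinned Control cells with high Serpina3n, 3 held a UMI of Gbp3 and 3 a UMI of Irgm1, for each 21.4% (4.66 to 50.8). No cell type here is known to lack these genes, so no background share can be set beside them.

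The cells with low Serpina3n also differed between the libraries. They were not matched for Serpina3n itself, which was at 30.4 CPM in Control against 63.5 CPM in Dox, a ratio of 2.09 (1.92 to 2.28). The part of this in the ratios below was not tested. Gbp3 was at 19.5 CPM in Control against 43.7 CPM in Dox, a ratio of 2.24 (2.02 to 2.50), Irgm1 at 15.9 and 23.8 CPM, a ratio of 1.5 (1.32 to 1.71), and Gbp6 at 5.99 and 9.32 CPM, a ratio of 1.56 (1.27 to 1.92). These 3 of 8 members were called higher and none lower, against 2.41% and 6.18% of all genes, and Irgm1 lay at the limit of the call. The member sum was 77.8 CPM in Control against 121 CPM in Dox, a ratio of 1.55 (1.47 to 1.64).

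In Control the members were not higher in the cells with high Serpina3n. The 15 Control cells with high Serpina3n held 26 member UMIs, a sum of 57.4 CPM (37.5 to 84.1) against 77.8 CPM (74.4 to 81.2) in the other Control RPE cells, a ratio of 0.738 (0.481 to 1.09). Of 8 members 4 were called lower and 1 (Igtp, from 5 UMIs in these cells) higher, beside 34.4% and 12.7% of all genes. All 8 met the limit of 20 UMIs through the other Control cells, so no weight is put on these calls. Gbp3 was at 19.9 CPM (9.09 to 37.7), from 9 UMIs, and 19.5 CPM (17.8 to 21.3), a ratio of 1.02 (0.464 to 1.95). Among the cells with high Serpina3n the member sum was 4.84 times (3.29 to 7.44) higher in Dox than in Control, a ratio that rests on those 15 cells. No member had more than 9 UMIs in those 15 cells. The limit of 20 UMIs was thus met through the Dox cells, and calls of single members are not counted for this comparison. Set against all Control RPE cells, the Dox cells with high Serpina3n had ratios of 6.46 for Gbp3, 4.72 for Irgm1, 2.44 for Igtp, 2.09 for Gbp6 and 2.0 for Gbp7, with 5 of 8 members called higher, where 5.67% of all genes were called higher and 23.6% lower.

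The other cell classes gave a different picture of the same genes. In Control, the member sum was lowest in RPE cells, below smooth muscle-like (113 CPM), macrophage-like (148 CPM), granzyme-led (181 CPM), Hbb-bs and Pmel-led (194 CPM), fibroblast-like (252 CPM), Snhg7os-led (305 CPM), Schwann-like (326 CPM) and endothelial-like cells (344 CPM). Classes were called after their leading genes where markers gave no name. The granzyme-led class met the naming rule for NK or T cells, with 4 of its 10 leading genes and 13 of 13 markers, but was left unnamed after this was seen, since antibody genes also led it, and the macrophage-like class was led by Chil3, Apoc2 and Clec4e. In this order the intervals of neighbours overlapped among the endothelial-like, Schwann-like and Snhg7os-led classes, and between the Hbb-bs and Pmel-led and granzyme-led classes. In Dox the RPE (149 CPM) passed the smooth muscle-like class (95.2 CPM) and overlapped with the granzyme-led class (150 CPM).

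Gbp3 was the exception among the members. In Control-RPE it stood at 1.12 times (1.01 to 1.25) its level in fibroblast-like cells, the third of the 9 classes, with intervals that overlap the neighbours on both sides. In Dox-RPE it stood at 2.89 times (2.68 to 3.11) the fibroblast-like level and first of the 9, with no overlap with the next class. Gbp7 came closest to this, at 0.794 and 1.10 times the fibroblast-like level. The other members were between 0.0798 and 0.298 times the fibroblast-like level in Control, Gbp2 at 0.0952. In this comparison of RPE with fibroblast-like cells, 8 of 10 members were called lower and none higher in Control, where 39% of all genes were called lower and 23.6% higher. In Dox 8 were called lower and 1, Gbp3, higher, against 39.5% and 24.9%.

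In fibroblast-like cells the libraries hardly differed. The member sum was 252 CPM (248 to 256) in Control against 264 CPM (260 to 269) in Dox, a ratio of 1.05 (1.03 to 1.07), and none of 10 members was called, where 2.7% of genes were called higher and 5.24% lower. Gbp3 was at 17.4 and 20.2 CPM and Irgm1 at 84.5 and 88.8 CPM there. Outside the RPE, Gbp3 was called higher in the Hbb-bs and Pmel-led class alone, at 13.9 CPM (11.1 to 17.3) against 37.4 CPM (30.5 to 45.3). Rpe65 in that class was at 524 CPM in Control against 1438 CPM in Dox, and the part of RPE RNA in its Gbp3 was not tested. The 11 RPE markers summed to 9982 and 30466 CPM there, and the 10 melanocyte markers to 37492 and 25797 CPM. The mix of RNA in the class thus differed between the libraries, and its part in the calls of this class was not tested. The cells of the class were shallow, with a median of 1179 UMIs in Control and 762 in Dox.

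In the smaller classes the calls of members went in either direction. Of 8 members in the Hbb-bs and Pmel-led class, 1 was called higher (Gbp3) and 2 lower (Gbp2 and Gbp9), where 9.05% of genes were called higher and 10.9% lower. Of 7 members in smooth muscle-like cells, none was called higher and 3 lower (Gbp2, Gbp5 and Gbp6), against 5.28% and 6.97%. In macrophage-like cells Gbp6 was called higher and Gbp8 lower of 9 members, against 5.76% and 9.31%. In the granzyme-led class Gbp4 was called higher and Gbp3, Gbp5, Gbp8 and Irgm1 lower of 10 members, against 4.65% and 10.4%. In endothelial-like cells Gbp2 was called higher and Gbp4 lower of 9 members, against 7.43% and 9.41%. In the Snhg7os-led class only Gbp2 of 8 members was called, as lower, against 10.4% of genes higher and 7.74% lower. In the Schwann-like class 1 member had enough UMIs and was not called, against 12.9% and 14.4%.

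**Figure D2:**
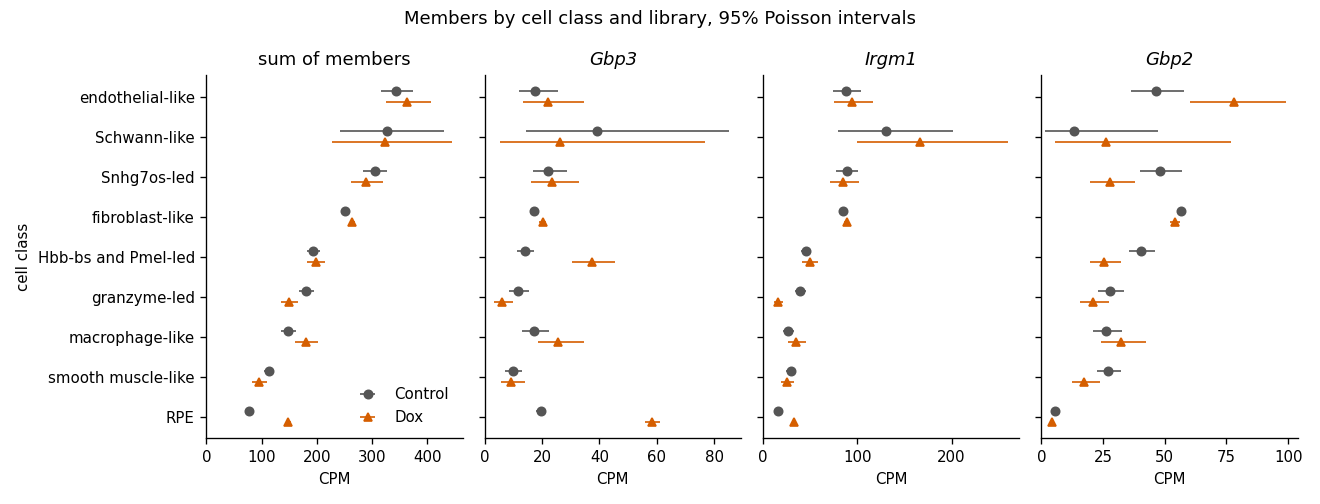
CPM of the member sum, Gbp3, Irgm1 and Gbp2 by cell class in Control (grey circles) and Dox (red triangles), with exact Poisson 95% intervals. RPE cells were lowest for the sum in Control (77.4 CPM) and highest for Gbp3 in Dox (58.4 CPM), while Gbp2 in RPE was at 5.4 and 4.13 CPM, under its level in each other class, though its interval in Control overlapped that of the Schwann-like cells.

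RNA of other cell types was found in the RPE cells. The 14 fibroblast markers summed to 1720 CPM in Control-RPE and 1019 CPM in Dox-RPE, which is 7.88% and 5.02% of their level in fibroblast-like cells, and to 392 CPM (1.93%) in the Dox cells with high Serpina3n. All of them but Kera were detected in RPE cells of both libraries. Gbp2 in RPE amounted to 9.52% of its fibroblast-like level in Control and 7.63% in Dox, and Gbp4, Gbp5, Gbp8 and Gbp9 to between 7.98% and 15.9%, shares at or above those of the fibroblast markers. In the Dox cells with high Serpina3n, Gbp2 was at 7.29%, Gbp5 at 10.3%, Gbp9 at 7.07% and Gbp4 at 6.71%, against the 1.93% of the markers. Gbp8 had no UMI in these cells. Of the 208 cells, Gbp5 was found in 6, and Gbp9 and Gbp4 in 1 each, so these shares rest on very few UMIs. Gbp3 amounted to 112% and 289%, and Irgm1 to 18.7% and 37.0%. Markers of smooth muscle, endothelium, Schwann cells and NK or T cells were each at most 1.52% of the level in their own class in either library. Melanocyte markers, some of which RPE cells also express, summed to 2898 CPM in Control-RPE and 1856 CPM in Dox-RPE, 7.73% and 7.20% of their level in the Hbb-bs and Pmel-led class. Markers of fibroblasts were lower in the library and in the cells where Gbp3 and Irgm1 were higher.

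The comparison was repeated in RPE cells with little RNA of this kind, those whose share of UMIs from markers of fibroblasts, macrophages, NK or T cells, smooth muscle, endothelium and Schwann cells, but not melanocytes, was below the median of all RPE cells (0.0744%). This left 620 cells in Control and 958 in Dox. Of these, 8 in Control and 162 in Dox had high Serpina3n, against 15 of 1526 and 208 of 1630 among all RPE cells. The mix of cells with high and low Serpina3n thus changed too, and its part in the ratios below was not tested. Gbp3 was at 19.6 CPM in Control against 60.8 CPM in Dox, a ratio of 3.11 (2.72 to 3.57). Irgm1 was at 11.6 and 31.0 CPM, a ratio of 2.69 (2.25 to 3.22). Gbp2 was at 0.831 CPM in Control against 1.13 CPM in Dox, from 11 and 25 UMIs, with a ratio of 1.36 (0.644 to 3.06), so that the lower Gbp2 of Dox-RPE was not seen in these cells. In them 4 of 6 members were called higher (Gbp3, Irgm1, Gbp6 and Igtp) and none lower, against 4.52% and 3.1% of all genes.

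To set the members beside each kind of interferon, 24 genes that lean to type I and 17 that lean to type II were compared in the same cells. Of the type I-leaning genes 19 had enough UMIs in RPE, and 13 of them were called higher in Dox and 1 lower, with a median log2 ratio of 0.87, where 2.93% of all genes were called higher and 7.44% lower. Ifit3, an antiviral protein, rose from 63.4 to 165 CPM, a ratio of 2.60 (2.46 to 2.75). Irf7, the master factor of interferon alpha genes, rose from 8.59 to 24.0 CPM, a ratio of 2.80 (2.41 to 3.26), and Ifi44 from 0.304 to 1.38 CPM, a ratio of 4.53 (2.11 to 11.2). Usp18, the brake on the type I receptor, was at 8.44 and 18.5 CPM, and Ifit1, a sensor of foreign RNA, at 18.6 and 33.7 CPM, ratios of 2.19 and 1.81. Oasl2 was called higher with a ratio of 1.51 (1.20 to 1.91).

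Not every type I-leaning gene moved. Isg15, the ubiquitin-like modifier, was at 35.5 and 35.8 CPM, a ratio of 1.01 (0.922 to 1.10), and Rsad2 (viperin, an antiviral enzyme) at 1.60 and 1.76 CPM. Ifit2 and Cmpk2 had ratios of 0.905 and 0.959, and Phf11d was called lower at 0.416. In the RPE cells with little other-cell RNA, Isg15 was at 4.98 CPM in Control against 18.2 CPM in Dox, a ratio of 3.65 (2.81 to 4.81). Of 18 genes with enough UMIs there, 16 were called higher and none lower, against 4.52% and 3.1% of all genes, with a median log2 ratio of 1.52. Phf11d, with 12 UMIs in Control and 7 in Dox, had too few for a call there, at a ratio of 0.349 (0.116 to 0.960). In fibroblast-like cells Isg15 stood at 337 CPM in Control, and the level in all Control-RPE cells was 0.106 times that.

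None of the type II-leaning genes was called higher in Dox-RPE, a count near the 2.93% of all genes called higher. Of 11 with enough UMIs, 5 were called lower (H2-Eb1, H2-Aa, Cd74, H2-Ab1 and Cd274), and the median log2 ratio was -0.38, where 7.44% of all genes were called lower. Cd74, the chaperone of MHC class II, was at 101 CPM in Control against 44.2 CPM in Dox, a ratio of 0.437 (0.409 to 0.467), and H2-Aa, a class II chain, at 30.9 and 12.4 CPM, a ratio of 0.403 (0.356 to 0.455). Irf1, the factor through which interferon gamma induces GBPs, was at 102 and 82.2 CPM, a ratio of 0.804 (0.762 to 0.850). Icam1, an adhesion molecule, was at 51.5 and 43.9 CPM, and Socs1, the feedback inhibitor of the receptor kinases, at 21.9 and 16.9 CPM. H2-DMa and H2-DMb1, which load class II molecules, had ratios of 0.968 and 1.07. Cxcl9, an interferon gamma-induced chemokine, held 22 UMIs in each library. Ciita, the master regulator of class II genes, held 3 and 5 UMIs, and Serpina3g 2 and 2.

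The lower class II genes moved together with macrophage markers. The 12 macrophage markers summed to 255 CPM in Control-RPE and 125.5 CPM in Dox-RPE, 1.01% and 0.501% of their level in macrophage-like cells. Cd74 in RPE was 0.785% of its level in those cells in Control and 0.351% in Dox, and H2-Aa 0.921% and 0.390%. In the RPE cells with little other-cell RNA, Cd74 was at 15.3 and 13.3 CPM, a ratio of 0.868 (0.724 to 1.04), and H2-Aa had a ratio of 1.15 (0.765 to 1.75). Of 10 type II-leaning genes 1 was called lower there (Cd274, 0.649) and 1 higher (Icam1, 2.37), against 3.1% and 4.52% of all genes. Their median log2 ratio was 0.11. Irf1 was at 13.4 and 17.6 CPM there, a ratio of 1.31 (1.09 to 1.57). The fall of the type II-leaning list thus did not hold in these cells, and what part the macrophage RNA had in it was not tested.

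**Figure D3:**
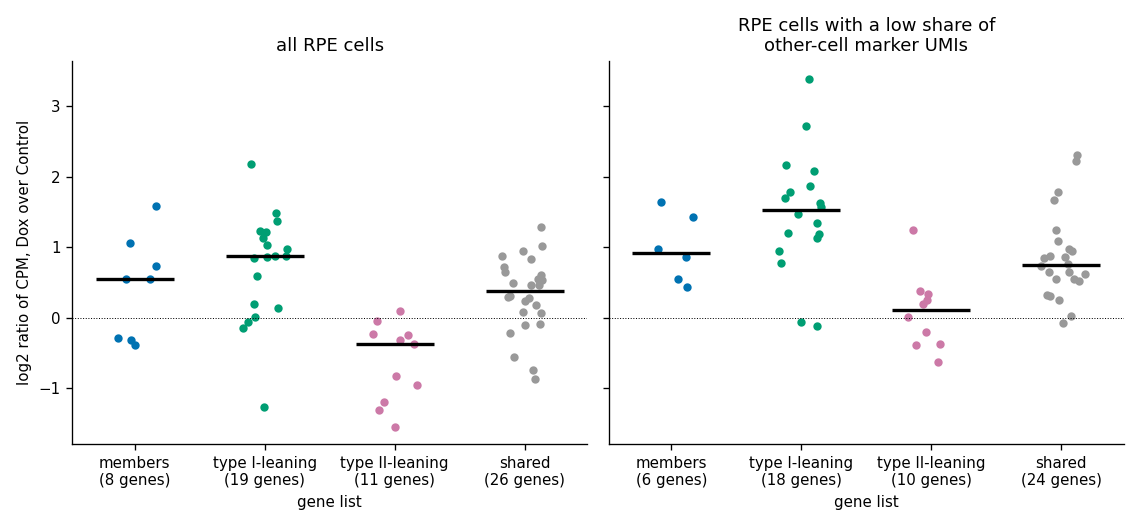
Log2 ratio of CPM, Dox over Control, for each gene with at least 20 UMIs in the member, type I-leaning, type II-leaning and shared lists (points) and the median of each list (bars), in all RPE cells (left) and in RPE cells with a low share of other-cell markers (right). The medians were 0.55, 0.87, -0.38 and 0.38 on the left and 0.92, 1.52, 0.11 and 0.75 on the right.

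Genes that answer to both interferons lay between the 2 lists. Of 26 with enough UMIs, 8 were called higher and 2 lower, with a median log2 ratio of 0.38, beside the 2.93% and 7.44% of all genes. Among the highest were Tap1, a subunit of the peptide transporter for MHC class I (3.27 and 7.95 CPM, ratio 2.43) and Bst2 or tetherin (233 and 473 CPM, ratio 2.03). Stat2 and Irf9, which act in the factor that type I interferon activates, were also called higher, with ratios of 1.65 and 1.78. The lowest were Zbp1 (ratio 0.550, interval 0.267 to 1.10), Cxcl10 (46.1 and 27.7 CPM, ratio 0.60) and Isg20 (ratio 0.678). In the RPE cells with little other-cell RNA 16 of 24 were called higher and none lower, against 4.52% and 3.1% of all genes, and Cxcl10 had a ratio of 1.24 (0.770 to 2.04). Of 8 further GTPase genes related to the members, 4 were called higher and none lower. Tgtp1 and Tgtp2, a pair of near-identical T cell GTPase genes, had ratios of 2.33 and 1.86, F830016B08Rik 8.43 (2.05 to 74.4) from 22 UMIs, and 9930111J21Rik1 1.97 (0.969 to 4.25). Ifi47 (ratio 0.969), Irgm2 (1.07) and Iigp1 (1.10) were not called. In the RPE cells with little other-cell RNA 5 of 6 of these GTPase genes were called higher and none lower, against the same 4.52% and 3.1%. The median log2 ratio of these 6 was 1.08, with Iigp1 at 3.39 (1.41 to 9.87), Ifi47 at 1.66 (1.22 to 2.28) and Irgm2 at 1.60 (0.967 to 2.75).

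The same lists separated the RPE cells of the Dox library. Between cells with high and low Serpina3n, 16 of 19 type I-leaning genes were called higher and 1 lower, with a median log2 ratio of 1.41, where the median of all genes was -0.20. Ifit3 was at 384 CPM in the cells with high Serpina3n, a ratio of 3.27, Irf7 at 68.3 CPM, a ratio of 4.74, and Isg15 at 52.6 CPM, a ratio of 1.64. Of 11 type II-leaning genes none was called higher and 6 were called lower, with a median of -0.80, where 23.3% of all genes were called lower and 5.51% higher. Irf1 was at 44.0 CPM in these cells, a ratio of 0.486, while Gbp3 and Irgm1 stood at 126 and 74.4 CPM. The fibroblast markers, at 392 CPM against 1155 CPM, and the macrophage markers, at 69.7 CPM against 138 CPM, were lower in these cells too. The 2 lists also lay apart in Control, where only 15 cells had high Serpina3n. There 6 of 18 type I-leaning genes were called higher and 4 lower, with a median of 0.50. Of 11 type II-leaning genes none was called higher and 8 lower, with a median of -1.56. The median of all genes was -0.22, with 12.7% called higher and 34.4% lower.

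Neither ligand was found at a level to compare in RPE. Ifnb1, the gene of interferon beta, had 0 UMIs in RPE cells of both libraries, where 3 UMIs, the limit that a count of 0 allows, would be 0.114 CPM in Control and 0.0962 CPM in Dox. Over all kept cells 131 UMIs were found in the Control library and 29 in the Dox library, of which 116 and 25 lay in macrophage-like cells (37.6 and 15.3 CPM). Ifng, the gene of interferon gamma, had 3 UMIs in Control-RPE and 1 in Dox-RPE, and in the granzyme-led class 160 and 75 UMIs (39.9 and 29.9 CPM). All other interferon genes of the list had at most 1 UMI in the RPE cells of either library. The intervals of Ifnb1 in macrophage-like cells lay apart between the libraries (31.0 to 45.0 and 9.90 to 22.6 CPM), and those of Ifng in the granzyme-led class overlapped.

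The receptors were present in both libraries. Ifnar1 was at 9.73 and 11.2 CPM and Ifnar2 at 66.8 and 70.4 CPM in RPE for the type I receptor, and Ifngr1 at 21.9 and 17.8 CPM and Ifngr2 at 15 and 17.3 CPM for the type II receptor. None of 9 genes of receptor chains and their kinases was called, where 2.93% of all genes were called higher and 7.44% lower. In the Dox cells with high Serpina3n Ifnar2 was at 111 CPM, 1.79 times the level of the cells with low Serpina3n, and Ifngr2 at 26.4 CPM, 1.72 times. Between these cells 3 of 8 such genes were called higher and none lower, beside 5.51% and 23.3% of all genes.

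RPE cells of each library were further ranked by the summed CPM of either list and divided into 4 equal groups, a step added after the values above had been seen. By the type I-leaning list, Gbp3 in Dox was at 28.3 CPM (24.4 to 32.7) in the lowest group and 105 CPM (97.9 to 112) in the highest, and Irgm1 at 12.4 and 72.5 CPM. In Control Gbp3 was at 16.3 CPM and 27.0 CPM (22.8 to 31.8). By the type II-leaning list, Gbp3 in Dox was at 44.8 CPM (39.6 to 50.5) and 60.2 CPM (53.8 to 67.0), highest in the group below the top (77.7 CPM), and in Control at 20.3 and 18.3 CPM. Gbp2 was higher in the top group by either list, from 1.21 to 11 CPM in Dox by type I and from 0.833 to 16.8 CPM by type II.

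The other-cell markers moved with this ranking. Their share of UMIs was 0.102% in the lowest and 0.237% in the highest Dox group by type I, and 0.0672% and 0.593% by type II. The share of cells with high Serpina3n was 2.94% and 29.2% by type I, and 3.43% and 11.3% by type II. Ranking by shares of few UMIs depends on depth, and the Dox groups by type II had medians of 10078 to 26825.5 UMIs per cell.

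**Figure D4:**
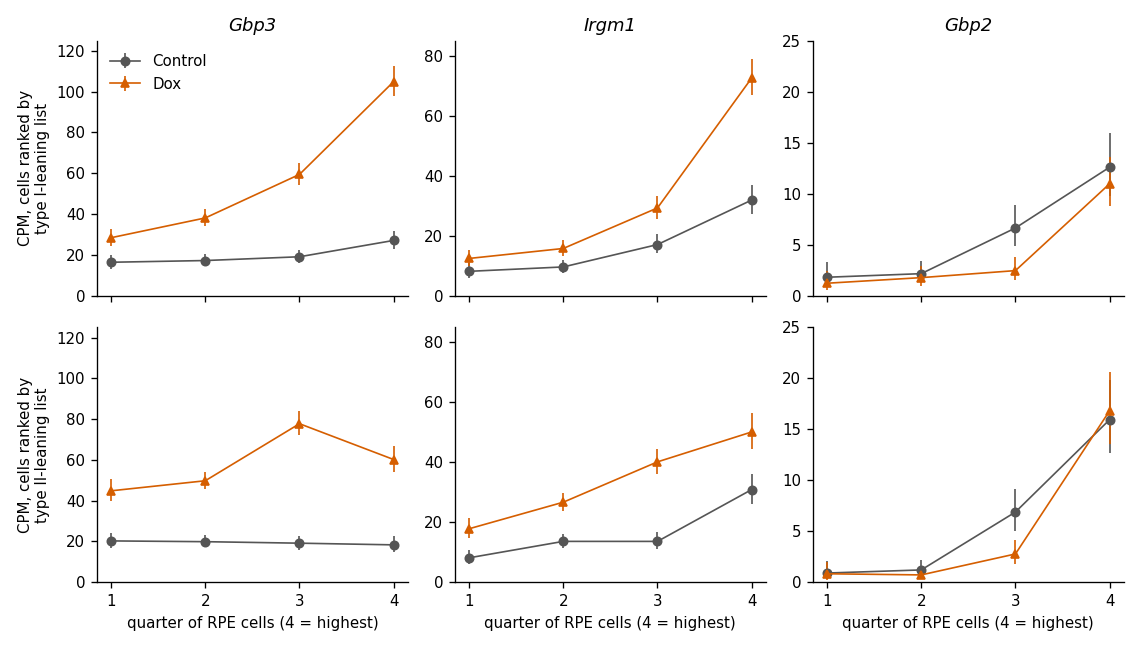
CPM of Gbp3, Irgm1 and Gbp2 with exact Poisson 95% intervals in 4 equal groups of RPE cells ranked by the summed CPM of the type I-leaning list (top) or the type II-leaning list (bottom), in Control (grey circles) and Dox (red triangles). Gbp3 in Dox went from 28.3 to 105 CPM along the type I-leaning list and from 44.8 to 60.2 CPM along the type II-leaning list, and in Control by the latter from 20.3 to 18.3 CPM.

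Across 18 points (each cell class, with the RPE divided by Serpina3n, in each library where it had at least 50 cells), the genes most like the member sum in log2(CPM + 1) included Irf9 (Pearson r = 0.86), Gpaa1 (0.83), Iigp1 (0.82) and Ifit1 (0.79), among 6443 genes. For Gbp3 they were Lman1 (0.85), Ifit3b (0.84), Dhrs1 (0.84), Ifit3 (0.83) and Aga (0.81). For Gbp2 they were Nostrin (0.93), Cmtm3 (0.93), Dnajb1 (0.92), Erp44 (0.91) and Tgfbr2 (0.90). Gbp3 and Gbp2 themselves had r = -0.47, Irgm1 and Igtp 0.73, and Gbp4 and Gbp9 0.90. The genes Gbp4 and Gbp9 overlap at their starts, and the part of this in their r was not tested. The points share their library, and classes share free RNA, so these values are descriptions.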

How the data were processed

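Single-cell RNA libraries of Control and Dox RPE tissue, 1 per group, were examined. The deposited values are raw UMI counts per gene and cell, made by the authors with Cell Ranger 4.0.0 per the file headers on mm10 and not normalized. The annotation version is not given in the sources used here. The libraries held 117731270 (Control) and 103997248 (Dox) UMIs.

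Kept were cells that passed limits on UMIs (over 500), genes (200 to 6000), complexity (over 0.8) and mitochondrial share (under 0.2). Clusters (Seurat 5.3.0, sctransform 0.4.2, R 4.3.3, 3000 features selected, 40 components, resolution 0.1) were named where at least 3 markers reached 10 CPM and the 10 leading genes held at least 1, which was decided with the clusters known. A tie between marker lists gave no name, as for Hbb-bs (erythroid) and Pmel (melanocyte) in the class called after them. RPE cells were taken by Rpe65 alone. Scrublet called 1941 Control and 0 Dox cells, so it did not work here, and doublets were left in. Counts were summed per class and library with Python 3.11.15 and scipy 1.17.1, and the code was tested on simulated data. With 1 library per group no test was made.

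The members and lists were chosen with earlier results of these data known. Named from the other lists were the 3 highest and 3 lowest genes with at least 20 UMIs and a few fixed ones. The ranking into 4 groups, the RPE-like cluster alternative and the thinning to 10000 UMIs were added after values had been seen. Mx1, Mx2 and Gbp11 were not matched and are not analysed here. Promoters and motifs came from RefSeq, positions from GENCODE vM21. Some items of the lists are not reported here.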

Additional observations from a re-analysis of the deposited data

Results flagged for a closer look

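The following 6 results of other classes ran opposite to the RPE cells, with the counting intervals of both off 1, and none of these differences was tested. Gbp2 was higher in Dox in endothelial-like cells (ratio 1.68, interval 1.19 to 2.37), from 76 and 67 UMIs. In the granzyme-led class Gbp3 (ratio 0.509), Irgm1 (0.404) and the member sum (0.830) were lower in Dox. Gbp6 was lower in the Hbb-bs and Pmel-led class (0.683), whose mix of RPE and melanocyte RNA also differed between the libraries. The member sum was lower in smooth muscle-like cells (0.843).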

How the results depend on the processing

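No paired analysis was possible because each group was 1 library, and for the same reason no replicate could be left out. Of 252 alternative values, 148 of those for the comparisons and 75 of those for single genes kept within the counting interval or limit of the reported one. Of the others, 17 for the comparisons and 10 for single genes moved outside it, and 2 for the comparisons changed direction. For the list medians the limits were the medians of the genes' own interval ends. Those are as wide as the interval of a typical single gene and easy to stay within. In RPE cells with few other-cell markers the member ratio was 2.26 (Serpina3n-low 1.67, Dox high over low 2.68), the list medians were 1.52 (type I), 0.11 (type II), 0.75 (shared) and 0.11 (receptors), the type II and receptor medians thereby changing sign, and 1 type II-leaning gene was called lower. With at least 5 Rpe65 UMIs the member ratio was 1.76, Dox high over low 2.07 and the type II median -0.17. With cells thinned to 2000 UMIs the member ratio was 1.65, Serpina3n-low 1.43, Serpina3n-high 9.95, Control high over low 0.361 and Dox high over low 2.52. Of these, 9.95 and 0.361 rest on the thinned Control cells with high Serpina3n and so on very few member UMIs. The mean of the cells' own CPM gave 1.73, leaving out the top Scrublet scores 2.03, and clustering at resolution 0.2 gave 1.02 in fibroblast-like cells. Over 11 settings for RPE cells, among them only those in the RPE-like cluster, the member ratio lay between 1.65 and 2.26. That of Gbp3 lay between 2.39 and 3.11, and that of Gbp2 between 0.571 and 1.36. The causes were not tested. Fibroblast-like cells without limits on cells were not run, since those cells were not clustered. Low counts limit the results for Gbp4, Gbp8 and the 15 Control cells with high Serpina3n. The part of the overlap of Gbp4, Gbp8 and Gbp9 in their low counts was not tested.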
